A study of Homo sapiens with 15 samples.

Results

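The genes described here encode the proteins of the cytosolic ribosome, the 82 of 19612 genes in the deposited table whose symbols follow the names RPS, RPL, RPLP and RPSA for these proteins. Within this family the members were taken by symbol, not by their values. Of these, 32 belong to the small subunit and 50 to the large subunit, among them RPLP0, RPLP1 and RPLP2 of the stalk. The kinases named RPS6K and the Y-linked copies of RPS4 were left out, as were ribosomal proteins such as FAU and RACK1, whose symbols do not follow the pattern and which were taken up as a separate list. In the fits across all genes 80 of the 82 were tested, because RPL3L and RPL10L had too few counts.

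The samples were 15 RNA libraries of H1975, a human lung adenocarcinoma line whose EGFR carries the L858R and T790M changes, and of H1975–OR, a sub-line obtained from it by prolonged culture in osimertinib, an inhibitor of mutant EGFR. H1975 cells given vehicle were Samples 1a to 1c. H1975–OR cells, maintained in 500 nM osimertinib, received vehicle in Samples 2a to 2c and 100 nM of 1,25(OH)2D3, the hormonal form of vitamin D3, in Samples 3a to 3c. Samples 4a to 4c received osimertinib at 500 nM, and Samples 5a to 5c the combination, all for 96 h in medium with charcoal-stripped serum. The vehicle group of H1975–OR had thus been taken out of the inhibitor it was selected in, the study names 3 separate passages as its replicates for vehicle and 1,25(OH)2D3, and there was no untreated or drug-treated H1975 group beside the vehicle group. The comparison is of 1 parental with 1 derived line, so the effect of resistance and any other difference between the sub-line and its parent cannot be told apart.

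Each ribosome holds a copy of nearly every ribosomal protein, and the proteins are made in balanced amounts although their genes lie on many chromosomes. Most of their mRNAs begin with a C followed by an unbroken run of pyrimidines, the 5′ terminal oligopyrimidine (TOP) tract, through which mTORC1 and the RNA-binding protein LARP1 control their translation and their stability. A few of the genes have a second, diverged copy, such as RPL39L beside RPL39, whose mRNA is known for its abundance in testis and in some tumors.

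The start of the transcript is the sequence feature that these genes share. RefSeq (GRCh38.p14) gave a promoter entry for 65 of the 82. Only the first entry of each symbol was used, so other annotated starts of a gene were not examined. In 42 of the 65 (64.6%) the base at the annotated start was a C followed by at least 4 pyrimidines on the gene's strand, compared with 4.04% of 27305 RefSeq promoters. A run of at least 8 pyrimidines lay within 15 bases of the start in 73.8% of the 65 and in 13.4% of all promoters. The windows below run from 15 bases before to 15 bases from the annotated start on, 5′ to 3′ on the gene's strand, so that the 16th base is the start, and capitals mark the pyrimidine run that holds the start. They are shown for genes that the results turn on. The first are members called higher in H1975–OR.
RPS24 (chr10:78033848-78033877, plus strand): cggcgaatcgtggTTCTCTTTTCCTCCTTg
RPS25 (chr11:119018329-119018358, minus strand): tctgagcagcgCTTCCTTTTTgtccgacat
RPS18 (chr6:33272060-33272089, plus strand): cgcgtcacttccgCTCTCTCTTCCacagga
RPL13A (chr19:49487593-49487622, plus strand): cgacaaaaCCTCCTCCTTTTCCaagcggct
RPL27A (chr11:8682777-8682806, plus strand): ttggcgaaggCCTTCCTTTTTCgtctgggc
RPL39 (chrX:119791616-119791645, minus strand): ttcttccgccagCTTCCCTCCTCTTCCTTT
RPLP2 (chr11:809952-809981, plus strand): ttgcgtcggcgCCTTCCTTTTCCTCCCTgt
RPS27 (chr1:153990747-153990776, plus strand): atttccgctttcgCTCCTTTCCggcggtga
The next are RPS29, which had the largest rise, and RPS27L, the diverged copy of RPS27, whose annotated starts were no C with 4 pyrimidines behind it.
RPS29 (chr14:49598696-49598725, minus strand): ccccgagcgcgcagCTggcagcggtggttg
RPS27L (chr15:63157463-63157492, minus strand): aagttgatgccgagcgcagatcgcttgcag
The last are genes with a lower value in H1975–OR, of which RPL41 has the C and its pyrimidine run and RPS26 does not at this annotated start.
RPL41 (chr12:56116618-56116647, plus strand): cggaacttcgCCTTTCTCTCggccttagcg
RPS26 (chr12:56041903-56041932, plus strand): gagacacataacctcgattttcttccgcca
In the 300-base entries, the letters CCGGAAG, found in binding sites of ETS-family factors, occurred on either strand in 33.8% of the 65 members and in 10.7% of all promoters, and TATAAA in 9.23% and 12%. A match describes these letters only.

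The libraries held between 4378033 and 6140025 estimated counts, with a median of 4974768, so that 3 counts, taken here as the floor for detection, stood for 0.489 to 0.685 CPM, the counts scaled to the size of the library (counts-per-million). KRT8 and KRT18, keratins of epithelial cells, were detected in every library, and the summed level of the blood marker genes was at most 2.12 CPM. CDH1 lay between 108 and 383 CPM in H1975 and between 5.20 and 9.40 CPM in H1975–OR given vehicle. The epithelial markers KRT7, KRT19 and EPCAM were also lower there (EPCAM 9.30 to 12.7 CPM, against 74.9 to 207 CPM in H1975). KRT18 was higher and KRT8 overlapped. Of the mesenchymal markers VIM overlapped, at 2197 to 3027 CPM in H1975 and 2907 to 4187 CPM in H1975–OR given vehicle. FN1 was lower in the latter (50.6 to 65.4 CPM, against 509 to 956 CPM), ZEB1 was higher, and CDH2 lay near the floor. CYP24A1, a target of the vitamin D receptor, lay between 676 and 1469 CPM in the libraries given 1,25(OH)2D3 and between 3.31 and 8.58 CPM in H1975–OR given vehicle. Sample 3a stood apart, as the study also judged when it left this sample out, and it was left out of the fits here; mitochondrial mRNAs took 1.54% of its counts against at most 1.05% elsewhere.

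A larger part of the counts fell on ribosomal protein genes in H1975–OR than in H1975. The 82 genes together took 7.05%, 7.77% and 7.13% of all estimated counts in Samples 1a to 1c, and 8.60%, 9.92% and 9.82% in Samples 2a to 2c. The share was 9.57% and 9.92% in Samples 3b and 3c, 8.42%, 9.47% and 9.93% in Samples 4a to 4c, and 8.49%, 9.33% and 9.91% in Samples 5a to 5c. All 11 of these H1975–OR libraries lay above all H1975 libraries, whereas Sample 3a, at 6.75%, lay below them. The group means were 7.32% ± 0.39 in H1975, 9.45% ± 0.74 in H1975–OR given vehicle, 9.28% ± 0.78 with osimertinib and 9.24% ± 0.72 with both (SD, n = 3), and 9.75% ± 0.25 with 1,25(OH)2D3 (SD, n = 2; 8.75% ± 1.74 with Sample 3a, n = 3). No Wilson 95% interval for a share was wider than 0.0558 percentage points, and these intervals cover counting error only. In bulk RNA, a larger share of the counts cannot be told apart from less RNA of other genes. The balance between the subunits varied little, with small subunit genes at 39.1% to 41.2% of the ribosomal protein counts in the 14 libraries and at 38.4% in Sample 3a.

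**Figure D1:**
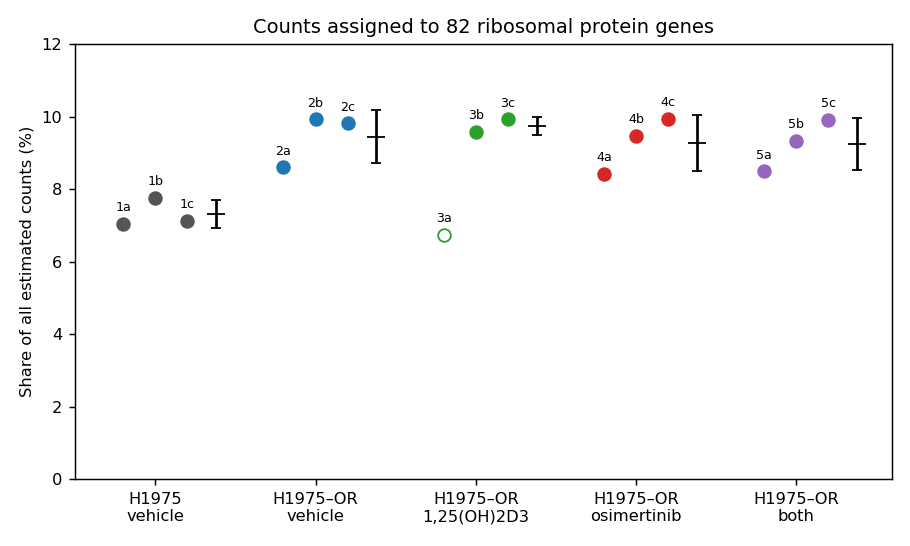
Share of all estimated counts (%) that fell on the 82 ribosomal protein genes, 1 point a library, with the mean ± SD of each group to the right of its points (n = 3; n = 2 for 1,25(OH)2D3, where the open point, Sample 3a at 6.75%, is left out). The H1975 libraries lie between 7.05% and 7.77% and the other H1975–OR libraries between 8.42% and 9.93%.

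The comparison of H1975–OR with H1975, both given vehicle, asked how the resistant sub-line differs from its parent. Ribosomal protein genes were mostly higher in the sub-line. With edgeR's quasi-likelihood test and Benjamini-Hochberg adjustment over 12513 genes, 33 of the 80 rose and 1, RPL39L, fell at an adjusted p under 0.05; in this comparison 9.89% of all genes were called higher and 10.3% lower. The rises of the 33 ran from 1.37-fold (RPLP2) to 3.20-fold (RPS29), 30 of them above 0.5 on the log2 scale. The log2 fold change was positive for 72 of the 80, with a median of 0.48 against 0.01 over all genes tested. For 42 of the 80 (52.5%) all 3 H1975–OR libraries lay above all 3 H1975 libraries, as they did for 19% of all genes, and for 33 (41.25%) all 11 H1975–OR libraries other than Sample 3a did, compared with 10.1% of all genes. In Sample 3a itself 22 of the 80 lay above every H1975 library, a count for which the share over all genes was not taken. The count of calls depended on the libraries in the fit. It was 11 with Sample 3a kept in, 22 without Sample 2b and 45 with DESeq2, while the median stayed between 0.41 and 0.56.

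**Figure D2:**
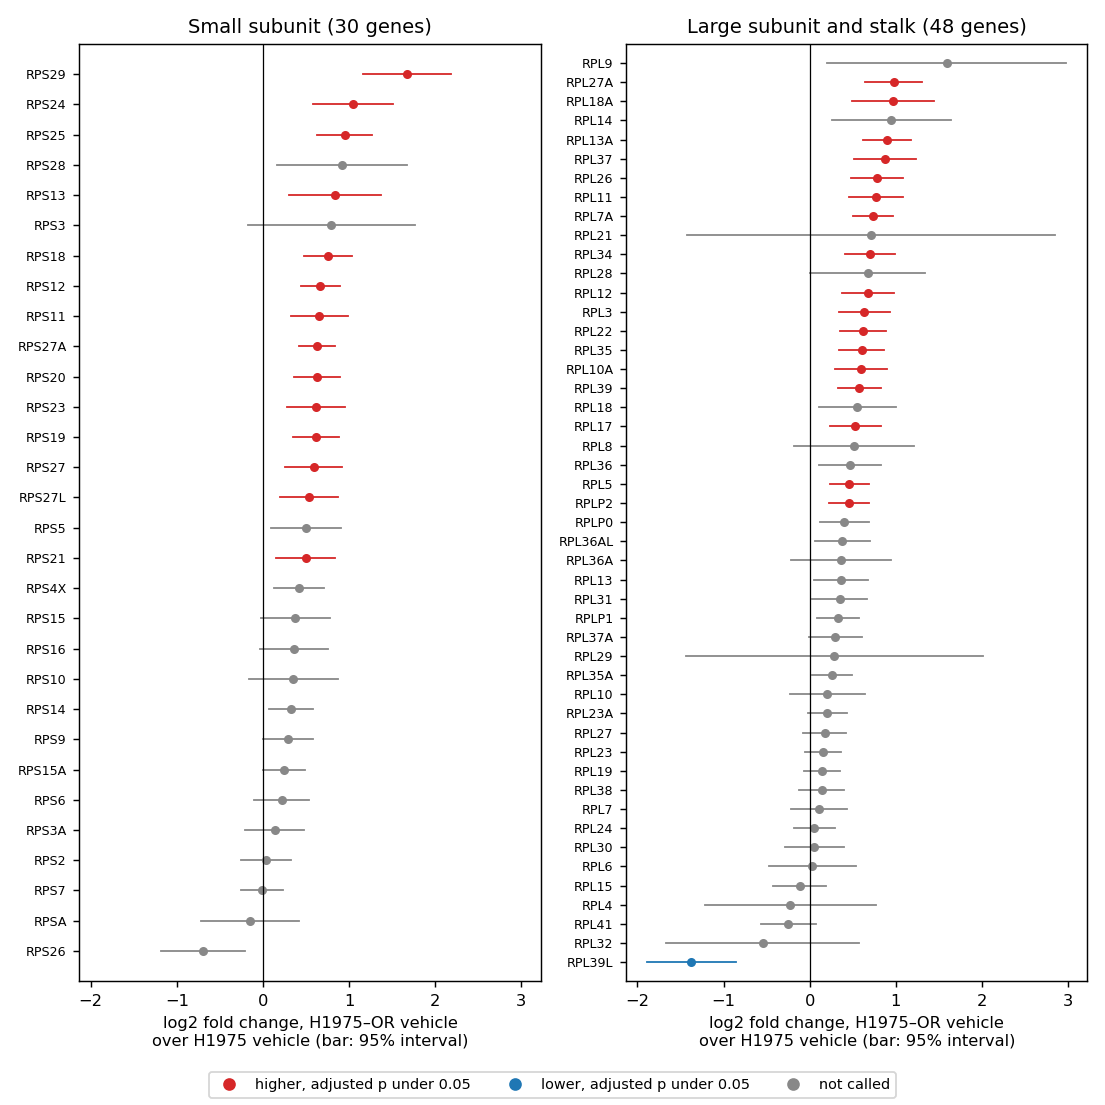
log2 fold change of 78 of the 80 tested ribosomal protein genes between H1975–OR and H1975, both given vehicle, with the 95% interval from edgeR, for 30 small subunit genes (left) and 48 large subunit and stalk genes (right). Red marks the 31 of these genes called higher, blue RPL39L, the gene called lower, and gray those not called; RPL21, RPL29, RPL9 and RPL32 have the widest intervals.

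Of the 32 small subunit genes 16 rose and none fell, with a median log2 fold change of 0.56. RPS29, which encodes a small zinc-binding protein of the subunit head, was at 11.6, 8.74 and 8.74 CPM in H1975 and at 26.4, 35.5 and 30.4 CPM in H1975–OR given vehicle. The groups did not overlap, and the other H1975–OR libraries, Sample 3a included, lay between 25.5 and 66.7 CPM. The difference was 1.68 ± 0.22 (log2 ± SE, edgeR adjusted p = 0.002). Its level was low for a ribosomal protein gene, at 32.8 CPM per kilobase of transcript in H1975. RPS24, whose gene is mutated in some families with Diamond-Blackfan anemia, was at 499, 383 and 478 CPM in H1975 and at 1153, 870 and 751 CPM in the sub-line, a difference of 1.04 ± 0.20 (adjusted p = 0.009). RPS25, needed for the internal entry of ribosomes on some viral RNAs, was at 376, 352 and 285 CPM and at 577, 621 and 738 CPM, a difference of 0.95 ± 0.14 (adjusted p = 0.003). RPS18, among the most abundant of the mRNAs, went with them, at 2097, 2417 and 1994 CPM and at 3155, 3980 and 3746 CPM (0.76 ± 0.12, adjusted p = 0.004). RPS27A, which is made as a fusion with ubiquitin, lay between 820 and 925 CPM in H1975 and between 1295 and 1368 CPM in the sub-line (0.63 ± 0.09, adjusted p = 0.003).

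Other small subunit genes were not called. RPS6, the substrate of S6 kinase, was at 954, 1293 and 1260 CPM in H1975 and at 1192, 1445 and 1402 CPM in the sub-line. The groups overlapped, and the difference was 0.22 with a 95% interval from -0.10 to 0.54 (adjusted p = 0.306). RPSA, which binds laminin at the cell surface when it is not part of the ribosome, scattered from 268 to 1636 CPM over the 15 libraries and had an interval from -0.71 to 0.42. RPS4X, the X-linked partner of the genes left out, lay at the threshold, with a difference of 0.42 ± 0.13 and an adjusted p of 0.050, and it was called in 6 of the alternatives, among them DESeq2 (adjusted p = 0.013) and the fit without Sample 2a (adjusted p = 0.005). RPS26, a protein at the mRNA exit channel, went the other way: 257, 361 and 260 CPM in H1975 and 185, 135 and 216 CPM in the sub-line. It had no overlap between the groups, and all other H1975–OR libraries lay between 64.1 and 167 CPM. Its difference of -0.70 ± 0.22 missed the threshold (adjusted p = 0.053) and passed it in 7 of the alternatives, among them DESeq2 (adjusted p = 0.010) and library totals in place of TMM (adjusted p = 0.039).

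Among the 45 large subunit genes that were tested beside the stalk, 16 rose and RPL39L fell, with a median of 0.46. RPL27A was at 1223, 1326 and 1084 CPM in H1975 and at 1895, 2625 and 2550 CPM in the sub-line, a difference of 0.98 ± 0.15 (adjusted p = 0.003). RPL13A, known also for a role outside the ribosome in silencing inflammatory mRNAs, was at 1044, 1198 and 1051 CPM and at 1744, 2276 and 2069 CPM (0.90 ± 0.12, adjusted p = 0.002). In both genes Sample 2a was the lowest of the vehicle libraries of the sub-line, and it was still above all of H1975. RPL5 and RPL11, which form a complex with 5S rRNA that can bind MDM2, rose by 0.46 ± 0.10 (adjusted p = 0.013) and 0.77 ± 0.14 (adjusted p = 0.007). RPL11 was at 1018, 1143 and 1023 CPM in H1975 and at 1444, 1954 and 1957 CPM in the sub-line. RPL41, the smallest ribosomal protein, was at 1962, 2332 and 2218 CPM and at 1554, 1741 and 2135 CPM. Those groups overlapped, and the interval of the difference ran from -0.56 to 0.07 (adjusted p = 0.246).

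The other members with large differences were also those that scattered most between replicates. RPL9, which lies near the sarcin-ricin loop of the large subunit, was at 18.3, 17.5 and 27.2 CPM in H1975 and at 33.9, 132 and 21.8 CPM in the sub-line. The groups overlapped, and the difference of 1.59 had an interval from 0.20 to 2.98 (adjusted p = 0.100). RPL32 was at 203, 230 and 423 CPM and at 326, 125 and 128 CPM, with an interval from -1.66 to 0.57.

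The stalk is where translation factors bind and are activated. RPLP2 rose by 0.46 ± 0.10 (adjusted p = 0.016), from 446, 495 and 472 CPM in H1975 to 588, 664 and 669 CPM in the sub-line. RPLP0, the anchor of the stalk, was at 1095, 1113 and 863 CPM and at 1230, 1380 and 1408 CPM. RPLP1, the partner of RPLP2, was at 239, 284 and 281 CPM and at 337, 312 and 350 CPM. Neither group overlapped the other in these genes, and both missed the threshold, with differences of 0.40 ± 0.13 (adjusted p = 0.054) and 0.33 ± 0.11 (adjusted p = 0.061). DESeq2 called both, at adjusted p of 0.014 and 0.036.

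The diverged copies did not all move with their partners. RPL39L (chr3:187120948-187180908, minus strand, GENCODE v44) was at 47.2, 65.7 and 76.2 CPM in H1975 and at 30.0, 21.9 and 20.2 CPM in H1975–OR given vehicle, a fall of 1.37 on the log2 scale (SE 0.23, adjusted p = 0.005). It stayed called under all alternatives, and all H1975–OR libraries, Sample 3a included, lay between 20.2 and 35.2 CPM, below all H1975 libraries. RPL39 itself was at 1178, 1387 and 1183 CPM in H1975 and at 2022, 1773 and 1732 CPM in the sub-line, a rise of 0.58 ± 0.11 (adjusted p = 0.009). The count of RPL39 over that of RPL39L was 24.9, 21.1 and 15.5 in Samples 1a to 1c and 67.3, 81.0 and 85.7 in Samples 2a to 2c, and it lay between 43.2 and 99.5 in the other H1975–OR libraries. RPS27L, a target of p53, rose with RPS27. It was at 89.1, 88.3 and 64.2 CPM and at 118, 111 and 117 CPM (0.53 ± 0.15, adjusted p = 0.037), although its call was lost in 10 of the alternatives, at adjusted p between 0.052 and 0.091. RPS27 differed by 0.59 ± 0.14 (adjusted p = 0.023). RPL36A and RPL36AL differed by 0.37 and 0.38, with intervals from -0.21 to 0.95 and from 0.06 to 0.70, and were not called; RPL36AL was called without Sample 2a (adjusted p = 0.016). RPL3L, the copy of RPL3 that is used in heart and skeletal muscle, had 1 to 13 counts a library, and RPL10L, the copy of RPL10 that is used in testis, had 0 or 1. No fold is given for either. RPL3 rose by 0.63 ± 0.13 (adjusted p = 0.011), while RPL10 differed by 0.21, with an interval from -0.23 to 0.64.

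**Figure D3:**
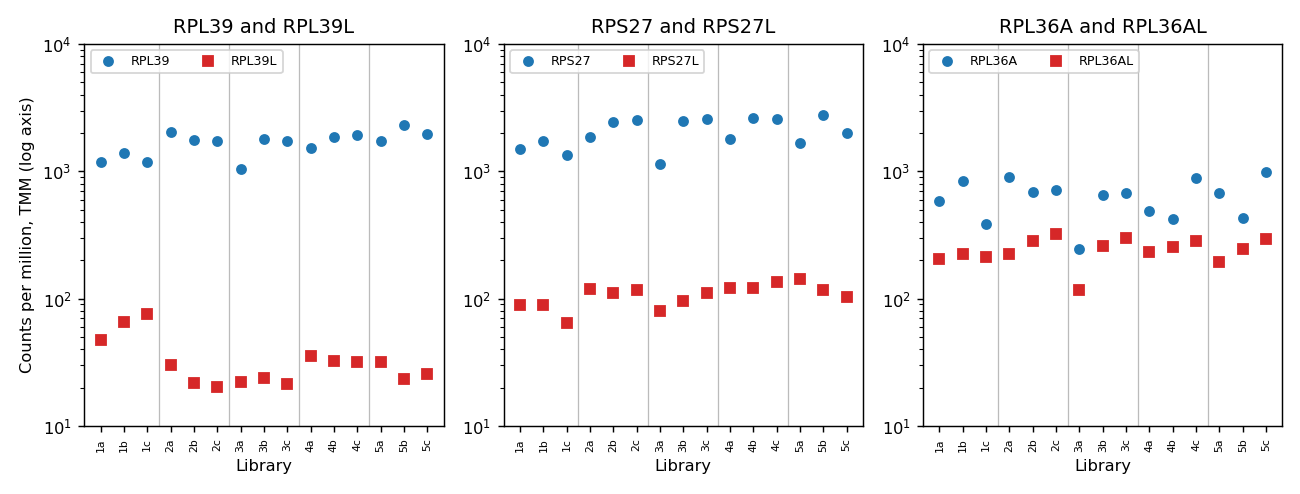
Level of 3 ribosomal protein genes (circles) and of their diverged copies (squares) in each of the 15 libraries, in TMM-scaled counts-per-million on a log axis; gray lines part the groups. RPL39L lies between 47.2 and 76.2 CPM in H1975 and between 20.2 and 35.2 CPM in H1975–OR, whereas RPL39 lies between 1178 and 1387 CPM in H1975 and between 1517 and 2312 CPM in the H1975–OR libraries other than Sample 3a.

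The members ranged widely in level, which is compared here only per kilobase of the MANE Select transcript. In H1975 the highest were RPS27, RPL26 and RPS18, at 4323, 4113 and 3951 CPM per kilobase, and among those tested the lowest were RPL14, RPS27L and RPL21, at 9.50, 13.2 and 15.2. The scale understates a gene whose annotated transcript is much longer than the one used, and 5 tested members, RPL14 and RPS27L among them, have an annotated transcript of over 4000 bases. They also differed in how steady they were. The SD between replicates of a group, on the scale of log2(CPM + 2), had a median of 0.21 over the tested members and ran from 0.04 (RPL19) to 1.34 (RPL9). In 11 members it exceeded 0.5, and none of these was called in this comparison. RPL21, RPL4 and RPL29 were among them, at 1.04, 1.02 and 1.02. Ribosomal protein genes have many processed pseudogenes, between which and the gene an estimate from short reads can be split. GENCODE names 1588 pseudogenes after 77 of the members, 133 of them after RPL21, and none has a row in the deposited table. Over the 80 tested members the number of pseudogenes and this SD were weakly related (r = 0.20). In 7 members an exon overlaps another gene on the same strand, which includes the read-through rows RPL17-C18orf32, RPL36A-HNRNPH2 and RPS10-NUDT3, and in 10 an exon overlaps a gene on the other strand. The values of both sets are therefore uncertain. They include RPL17, RPL22, RPL26, RPL36A, RPS10 and RPS15A on the same strand and RPL10, RPL23A, RPL31, RPL32, RPL35, RPL36, RPS3A, RPS23, RPS25 and RPS28 with antisense neighbors.

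Most of the members rose and fell together from library to library. Over the 14 libraries without Sample 3a, the correlation of a gene with the median of the other members had a median of 0.82, and it exceeded 0.8 for 46 genes. RPS18 and RPL27A were among those that followed the others closely, at 0.99 and 0.98. It was below 0 for 9 genes, of which RPL39L (-0.88), RPS26 (-0.75) and RPL41 (-0.39) were the lowest. The libraries share their scaling, and the difference between H1975 and H1975–OR is part of this correlation.

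**Figure D4:**
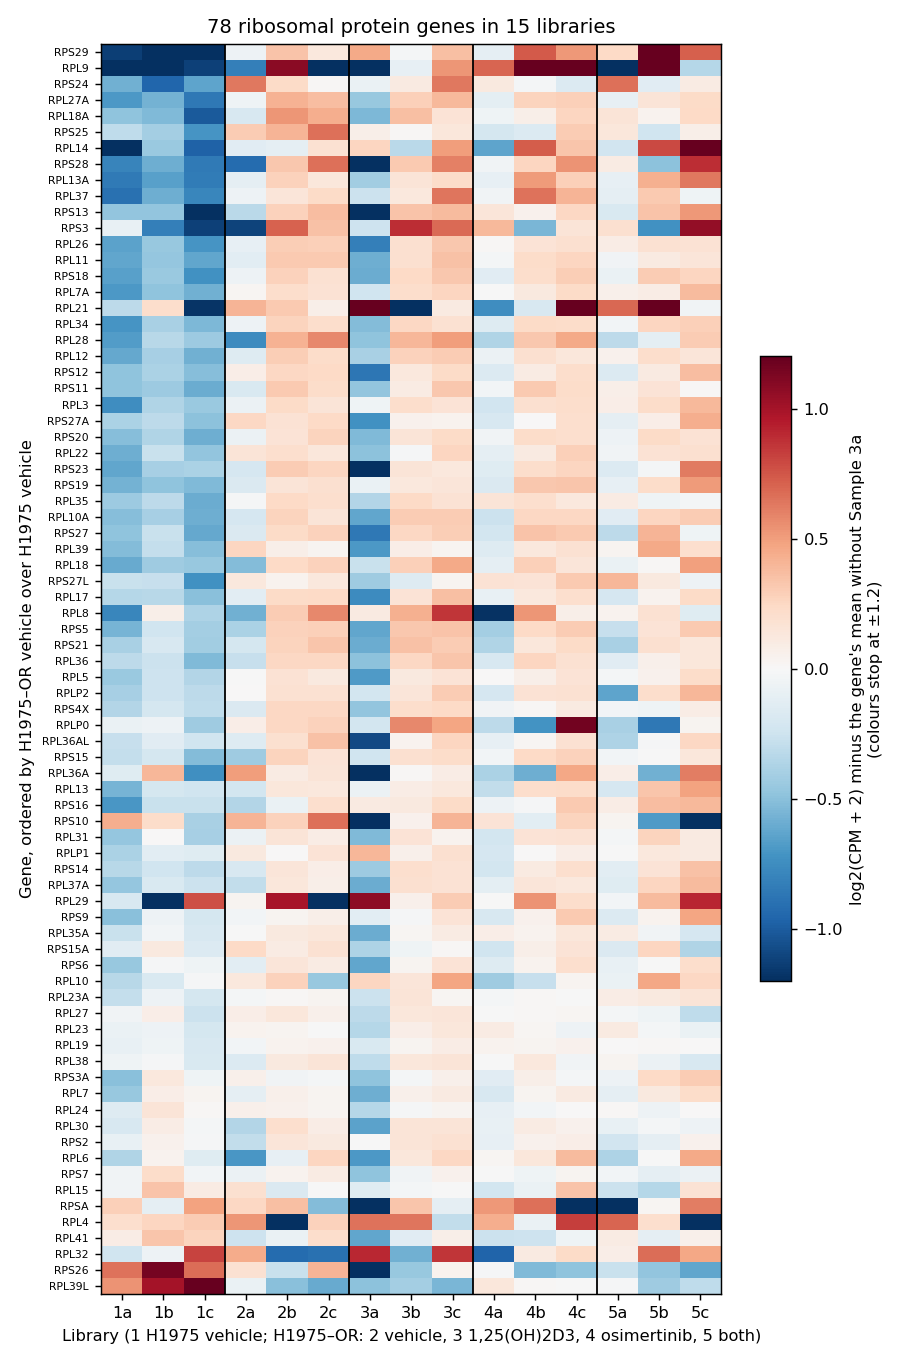
log2(CPM + 2) of 78 of the 80 tested ribosomal protein genes (rows, ordered by the difference between H1975–OR and H1975, both given vehicle) in the 15 libraries (columns, parted by group), as the difference from the gene's mean over the 14 libraries other than Sample 3a; red is above the mean and blue below, and the colors stop at ±1.2. Most rows are blue in 1a to 1c and in 3a and pale or red elsewhere, with RPL39L and RPS26 at the bottom the reverse in 1a to 1c, and a few rows such as RPL9, RPL21 and RPL29 scatter within groups.

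The replicate letters carried part of this variation. In H1975–OR, the median member was lower in the library labelled a than in the mean of b and c, by 0.27 with vehicle, 0.29 with osimertinib and 0.22 with both agents on the log2 scale, and 41 of the 80 were lowest in a in all 3 groups. The share of all genes with this pattern was not taken. Over 12627 genes the deviations of these a libraries from their group means also correlated, at 0.31 to 0.464, so the letter was not particular to the members. Sample 3a was lower than the mean of 3b and 3c by 0.64. The mitochondrial share was higher in the a library than in b and c with osimertinib (1.04%, against 0.67% and 0.68%) and with both agents (1.04%, against 0.64% and 0.42%). With vehicle it was not, at 0.75% in Sample 2a, 0.76% in 2b and 0.77% in 2c. Its part in these differences was not tested. Between libraries of the same letter, the median difference of H1975–OR from H1975 was 0.33 for a (66 of 80 higher), 0.46 for b (67 higher) and 0.64 for c (70 higher). The libraries of the 2 lines share a letter only, so these differences are not of paired replicates. The share of all genes higher in each was not taken.

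The position of the genes and the form of their transcripts were compared with the calls. The 33 members called higher lay on 17 chromosomes. All 5 tested members on chromosome 1 rose, as did 4 of 5 on chromosome 11, 3 of 4 on chromosome 6 and 3 of 4 on chromosome 9. None of 8 on chromosome 3, of 4 on chromosome 12 or of 3 on chromosome 16 was called higher. Over all genes tested, 10.4% were called higher on chromosome 1, 16.7% on 11, 17.6% on 6 and 15.5% on 9, compared with 5.69% on 3, 8.13% on 12 and 4.05% on 16. Other chromosomes did not follow this order. On X 18.7% of all genes and 1 of 4 members were called higher. On 20 and 22, with 5.64% and 2.45% of all genes, the 1 tested member of each was called higher. The part of chromosome position in the members' calls was not tested. Members called higher had a median transcript length of 614 bases, against 1087.5 for those not called and 3435 for all genes tested, and a GC content of 48.2%, against 47.5% and 48.0%. Across the members the linear correlation of the log2 fold change was 0.07 with length and 0.004 with GC content. The first was taken on unscaled lengths, among which 5 exceed 4000 bases, so it does not settle the relation to length. Of the 42 members with a C and at least 4 pyrimidines at the annotated start, 19 rose (45.2%), with a median of 0.56. Of the 22 tested members with another start 7 rose (31.8%), with a median of 0.38. Another start here means the first RefSeq entry only and does not show that the mRNA lacks a TOP tract. The difference between these sets was not tested.

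Other genes of the translation machinery were compared in the same fit. Each list is to be read against the 9.89% of all genes called higher and the 10.3% called lower. Of 19 mRNAs of other proteins known to carry a TOP tract, 9 rose (47.4%) and none fell, with a median of 0.35. They included EEF1A1, which brings aminoacyl-tRNA to the ribosome, EEF1G, a subunit of its exchange factor complex, EEF2, which moves the ribosome along the mRNA, and the initiation factors EIF3E, EIF3F, EIF2S3 and EIF4A2. EEF2 rose by 0.89 ± 0.15 (adjusted p = 0.005), EIF3F by 0.83 ± 0.09 (adjusted p = 0.001) and EIF4A2 by 1.06 ± 0.13 (adjusted p = 0.001). EIF3A, EEF1B2 and NPM1 had differences of 0.02, -0.08 and 0.05 and were not called. Of 6 ribosomal proteins outside the symbol rule 2 rose (33.3%) and none fell, with a median of 0.02. RPL7L1, 1 of the 2, rose by 0.38 ± 0.11 (adjusted p = 0.041). FAU, RACK1, RPL22L1 and RPL26L1 were not called. Of 95 ribosome biogenesis factors 3 rose (3.16%) and 8 fell (8.42%), both below the shares over all genes, with a median of -0.03. Among those that fell were IMP4 (-1.12 ± 0.18, adjusted p = 0.004) and FTSJ3 (-0.79 ± 0.16, adjusted p = 0.011), both of the processing of pre-rRNA. Of 15 genes of RNA polymerase I 1 rose and 1 fell (6.67% each). RRN3, the initiation factor of the polymerase, differed by -0.47 ± 0.13 (adjusted p = 0.032). Among 78 proteins of the mitochondrial ribosome 4 rose (5.13%) and 5 fell (6.41%), with a median of -0.08. Of 22 regulators of mTORC1 and MYC 2 rose and 2 fell (9.09% each). The calls of these 4 lists were thus no more frequent than over all genes. RHEB, the activator of mTORC1, fell by 0.54 on the log2 scale (SE 0.09, adjusted p = 0.006), and MYC differed by 0.76 ± 0.23 (adjusted p = 0.052).

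The treatments of H1975–OR left no ribosomal protein gene called. With 1,25(OH)2D3 against vehicle, edgeR called 0 of the 80, with 2 at an unadjusted p under 0.05, against 7.27% of all genes, and DESeq2 called 0. In this comparison 0.152% of all genes were called. The median was 0.08 (all genes -0.01), with 62 of the 80 positive (48 of the 80 with library totals in place of TMM) against 48.7% of all genes, and it was -0.09 with Sample 3a kept in. This small shift varied with the libraries in the fit, and its cause was not tested. The vehicle group held the lower Sample 2a, while 3a was left out. Without Sample 2a the median was 0.01 and 42 of the 80 were positive. With the replicate block it was 0.03 and 48 were positive. That fit also held the H1975 libraries, which share a letter only, so its block is weakly founded. Between libraries of the same letter the median difference was -0.03 for b (27 of 80 higher) and 0.04 for c (53 higher). The 95% interval lay within a change of 2-fold in either direction for 72 of the 80. RPS18 had an interval from -0.17 to 0.45, RPL5 from -0.21 to 0.30 and RPS6 from -0.30 to 0.41. The log2 fold changes of the 80 ran from -1.17 (RPL21, with an interval from -3.66 to 1.32) to 0.63. The genes at an unadjusted p under 0.05 were RPLP0 (0.32 ± 0.14, adjusted p = 0.676) and RPS25 (-0.39 ± 0.16, adjusted p = 0.633).

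Osimertinib against vehicle likewise gave 0 calls among the 80 with edgeR, with 2 at an unadjusted p under 0.05, against 7.53% of all genes, and 0 with DESeq2, where edgeR called 0.048% of all genes. The median was -0.01 and the interval lay within a 2-fold change for 68. RPS25 was at 403, 417 and 577 CPM with osimertinib, against 577, 621 and 738 CPM with vehicle. Its difference was -0.47 ± 0.17, with an interval from -0.84 to -0.10 (adjusted p = 0.526). RPL39L, at 35.2, 32.1 and 31.9 CPM with osimertinib, lay above all vehicle libraries and below all H1975 libraries; its difference from vehicle was 0.46 ± 0.20 (adjusted p = 0.644). RPL9 was at 101, 340 and 258 CPM with osimertinib, a difference of 1.90 from vehicle with an interval from -0.40 to 4.19 (adjusted p = 0.758).

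With both agents, edgeR and DESeq2 called 0 of the 80 against osimertinib, where 0.096% of all genes were called by edgeR and 0 of the 80 had an unadjusted p under 0.05, against 4.16% of all genes, and 0 of the 80 against vehicle, where 0.496% of all genes were called. There 4 of the 80 had an unadjusted p under 0.05, a smaller share than the 12.5% of all genes. The medians were -0.002 and -0.02, and the intervals lay within a 2-fold change for 70 and 66 of the 80. The 4 genes were RPS10, RPS25, RPS26 and RPS29. RPS10 was at 48.9, 28.9 and 13.0 CPM with both and at 63.7, 58.3 and 76.4 CPM with vehicle (-1.13 ± 0.37, adjusted p = 0.244). RPS29 was at 33.0, 66.7 and 46.9 CPM with both (0.66 ± 0.29, adjusted p = 0.382), and RPS26 at 135, 117 and 105 CPM (-0.59 ± 0.22, adjusted p = 0.299). The log2 fold changes of the 80 ran from -0.78 to 0.82 against osimertinib and from -1.13 to 1.12 against vehicle. RPL14, at 1.09 against vehicle, had an interval from -0.00062 to 2.17 (adjusted p = 0.400). The groups were compared with the same vehicle libraries in each case. For the difference between the effects of 1,25(OH)2D3 with and without osimertinib the median was -0.09 (0.08 with Sample 3a kept in). The values of the 80 ran from -1.01 to 1.85 (RPL21, with an interval from -1.51 to 5.21). The 95% interval reached, in the median member, 0.55 to either side on the log2 scale, and it lay within a 2-fold change for 61 of the 80. At this width 0% of all genes and 0 of the 80 were called by edgeR, and 0 of the 80 by DESeq2, with 0 of the 80 at an unadjusted p under 0.05, against 2.64% of all genes. These counts do not show that the effects were alike.

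**Figure D5:**
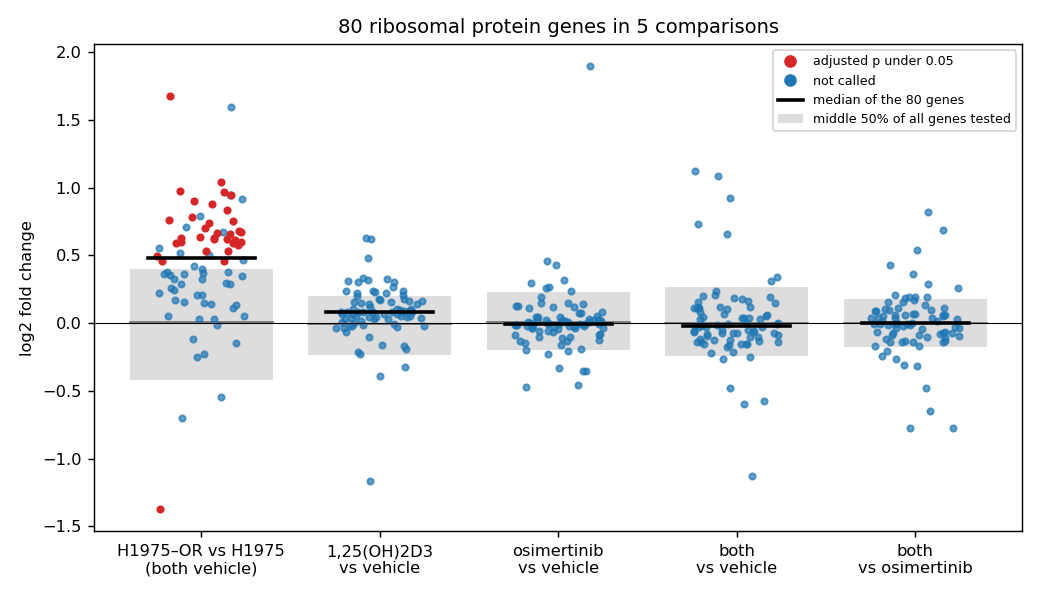
log2 fold change of the 80 tested ribosomal protein genes (points) in 5 comparisons, with their median (black bar) and, in gray, the middle 50% of all genes tested. Red points are called at an adjusted p under 0.05: 34 in the comparison of H1975–OR with H1975, where the median is 0.48, and 0 in each comparison between treatments, where the medians lie between -0.02 and 0.08.

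Libraries of the same letter in the vehicle, osimertinib and combined groups deviated alike from their group means, with correlations from 0.118 to 0.464. These comparisons were therefore also fitted with the letter as a block. The labels give the letters without naming them as pairs, and libraries of unlike letter were not compared. Calls found only with the block rest on this reading of the letters. The block raised the calls over all genes to 0.28% for osimertinib against vehicle, 0.264% for both against osimertinib and 3.69% for both against vehicle, and left the members at 0 calls in each, with 5, 1 and 11 of the 80 at an unadjusted p under 0.05, against 13.7%, 8.4% and 20.2% of all genes. The other lists are given beside these values, and the difference between lists was not tested. With osimertinib 84 of the 95 biogenesis factors had a lower value than with vehicle, against 49% of all genes, with a median of -0.30. None of them was called by edgeR without the block or with it, and 33 had an unadjusted p under 0.05 without it, where 7.53% of all genes did. Of the 78 mitochondrial ribosomal proteins 55 had a lower value, with a median of -0.11, and 0 were called. With both agents against osimertinib the median was -0.02 for the factors and -0.12 for the mitochondrial ribosomal proteins, and none of either list was called. With both agents against vehicle 68 of the 78 mitochondrial ribosomal proteins had a lower value, with a median of -0.22, and 0 were called without the block and 4 fell with it. Of the biogenesis factors 82 of the 95 had a lower value, against 49.9% of all genes, with a median of -0.29; none was called without the block and 10 fell with it, where 3.69% of all genes were called. Among these 10 were NIP7 (-0.53 ± 0.09, adjusted p = 0.025), UTP3 (-0.69 ± 0.12, adjusted p = 0.025), SURF6 (-0.55 ± 0.10, adjusted p = 0.025) and DDX21 (-0.49 ± 0.09, adjusted p = 0.028), all of nucleolar steps of ribosome assembly. MYC also fell with the block, by 0.87 on the log2 scale (SE 0.14, adjusted p = 0.021), the 1 gene called of the 22 regulators of mTORC1 and MYC. Without the block edgeR did not call it (-0.83 ± 0.31, adjusted p = 0.315).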

How the data were processed

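RNA of 15 libraries was sequenced as stranded, ribosomal RNA-depleted total RNA on a NextSeq500. The authors quantified hg38 transcripts with Kallisto and combined them per gene with tximport. The deposited values are these estimated counts, whose totals differ between libraries. The submitters' processing notes also name CASAVA 1.8.2, STAR 2.5.2b, kallisto 0.43.0 and GRCh38. The annotation, the tximport settings (and so any scaling by transcript length) and the use of strand are not given in the sources used here.

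Estimated counts were rounded and tested with edgeR 4.0.16 in R 4.3.3 (quasi-likelihood, TMM scaling, filterByExpr with a minimum count of 10 and a minimum total of 15, two-sided, Benjamini-Hochberg over all genes, threshold 0.05). The fit of Samples 1a to 2c, 3b and 3c held 12513 genes, and that of 11 H1975–OR libraries, without 3a, held 12503. Sample 3a was left out, as in the study. CPM are TMM-scaled over all 15 libraries, with a pseudocount of 2 on the log2 scale. DESeq2 1.42.0, other scalings and filters, a replicate block and leaving out libraries were alternatives; a fit without both Samples 1a and 2a, and a 1,25(OH)2D3 effect fitted in the H1975–OR libraries alone, were added after seeing the data. The fits were tested on simulated data, in which most genes given a 2-fold change were not called in any of the comparisons, and no such gene for the difference between 1,25(OH)2D3 effects, so that a count of 0 does not show that changes of this size were absent. The libraries had 4378033 to 6140025 counts, and p-values measure the spread between libraries, which the study names as separate passages for vehicle and 1,25(OH)2D3; for the osimertinib groups nothing says so, and their spread may be technical. Gene models were GENCODE v44 and promoters RefSeq, GRCh38.p14.

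A few genes counted in the totals are not reported by name here. The members and the gene lists were chosen with earlier results of these data known. Named genes were drawn first from the 3 members with the largest rise and fall in each comparison. Only members with a mean of 50 or more normalized counts in either group were ranked. Not all of those taken are given a value in each comparison. Also named were the diverged copies with their partners, 10 members named for their roles, and up to 4 called genes of each other list. Beyond these, RPS18, RPS25, RPL13A, RPL27A and other genes of those lists were chosen after their values were seen. So were the genes at an unadjusted p under 0.05 and those named for their scatter, level or likeness.

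The letters in the labels were checked as pairs by the correlation of deviations from the group means over 12627 genes. Between the vehicle, osimertinib and combined groups every correlation was over 0.1 (0.118 to 0.464). Between H1975 and the H1975–OR groups they lay between -0.123 and 0.082, so that these libraries share a letter only. For Samples 3b and 3c with the other H1975–OR groups they lay between 0 and 0.156.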

Additional observations from a re-analysis of the deposited data

How the results depend on the processing

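The count of ribosomal protein genes called between H1975–OR and H1975, 34, was 11 with Sample 3a kept in and 22 to 46 with each replicate left out in turn, lowest without Sample 2b and highest without Sample 2a. It was 33 with the replicate block, which changed no call of the members in the treatment comparisons. The median of the members for 1,25(OH)2D3 against vehicle turned to -0.087 with Sample 3a kept in, and that for the change in the 1,25(OH)2D3 effect with osimertinib to 0.0771; Sample 3a lay below the mean of 3b and 3c in 72 of the 80 members. No named gene reversed a called direction. Library sizes without TMM moved the median of all genes to -0.06 in the comparison of the lines and left 32 members called. Of the genes named, RPL5, RPL11, RPL39, RPLP2, RPS27, RPS27A and RPS27L lost their call between the lines with Sample 3a kept in, at adjusted p between 0.0617 and 0.209, and RPLP2 and RPS27 also without Samples 1a, 1c, 2b or 2c in turn. RPS26, RPS4X and RPL14 gained a call in 7, 6 and 5 alternatives, at adjusted p between 0.0046 and 0.0499. RPS3, RPLP0 and RPL36AL gained one without Sample 2a (adjusted p = 0.024, 0.044 and 0.016), and RPL9 with DESeq2 (0.024) or without Sample 2c (0.041). Depth limits RPL3L, at 1 to 13 counts, and RPL10L, at 0 or 1, and the scatter of RPL9, RPL21 and RPL29 limits theirs.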
